A study of Mus musculus with 10 samples.

Results

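The following concerns 10 genes of the insulin and IGF1 pathway in skeletal muscle of young and aged mice. They were a growth factor (Igf1), 3 proteins that bind it (Igfbp3, Igfbp4, Igfbp5), the IGF1 and insulin receptors (Igf1r, Insr), 2 adaptors that the receptors phosphorylate (Irs1, Irs2), a kinase downstream (Akt2) and the insulin-regulated glucose transporter (Slc2a4). These 10 were named by symbol among the 37947 gene symbols of the deposited values, and each gene was represented by its most abundant transcript, by mean over young and aged libraries alike. All 10 symbols were found, with 45 transcripts between them, of which 44 were above 0 in at least 1 library. RNA from gastrocnemius, the large calf muscle, was sequenced from 5 young mice (6 months old) and 5 aged mice (24 months old), with 1 library for each mouse. All were untreated males of the C57BL/6 strain with no engineered allele, so sex and other strains were not examined. The unit was FPKM, the number of fragments scaled to the length of the transcript and the size of the library, on the log2 scale, and an FPKM under 1 was listed as 0.

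Insulin and IGF1 act through related receptor kinases at the cell surface. The receptors phosphorylate the Irs adaptors, which recruit PI3 kinase and so activate Akt. In muscle fibers, Akt signaling moves the transporter GLUT4, the product of Slc2a4, to the cell surface to take up glucose, favors protein synthesis and restrains the FoxO factors that drive protein breakdown genes. Muscle makes IGF1 itself, and the IGF binding proteins hold IGF1 in and around the tissue and set how much of it reaches the receptor.

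The libraries were checked before the genes were compared. Depth was 19886361 to 34554354 reads per library, so 1 kb of transcript at FPKM 1 drew 19.9 to 34.6 reads. All 6 muscle fiber markers were high in every library, with a summed level of 69494 to 92657 FPKM, whereas of the 3 satellite cell markers Pax7 and Myf5 were listed at 0 in all libraries and Chodl was low, at 0 to 1.44 log2 FPKM. Both libraries numbered 3 stood apart. Aged 3 had 29878 transcripts above 0 and young 3 had 35024, against 38855 to 43296 in the other 8 libraries. Over the 38059 transcripts fitted, those whose FPKM averaged 1 or more, 38.3% were more than 1 below the median of the other aged libraries in aged 3 on the log2 scale, and 14.7% were that far below the other young libraries in young 3. Results are therefore also given without these 2 libraries.

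None of the 9 genes that could be tested passed the correction for all transcripts, and the glucose transporter gene had the lowest p in the fit of all 10 libraries with equal weight. These 9 averaged an FPKM of 1 or more, in each age as well as over all libraries, and Igf1r did not. With limma and Benjamini-Hochberg adjustment, 0 of the 9 passed an adjusted p of 0.05, beside 0.00788% of all transcripts fitted (3 of 38059). At an unadjusted limma p under 0.05, 1 of the 9 was lower in aged muscle, Slc2a4, beside 0.738% of all transcripts, and 0 were higher, beside 3.89%. The exact permutation test of each gene gave the same count, 1 lower and 0 higher, and no share of all transcripts was computed for it. In 0 of the 9 genes were the 5 aged libraries all above or all below the 5 young libraries, beside 1.25% of all transcripts for aged higher and 0.292% for aged lower. The median difference of the 9 genes, aged minus young, was 0.07 on the log2 scale, and that of all transcripts was 0.03. Without both libraries numbered 3, Slc2a4 was still the 1 gene lower at an unadjusted limma p under 0.05, beside 1.1% of all transcripts, and 0 of the 9 were higher, beside 11.5%. With limma array weights, which count a library less the more it departs from its group, Slc2a4 was at an unadjusted p of 0.0934 and the 1 gene under 0.05 was Igfbp4, at 0.37 higher (limma unadjusted p = 0.0201). With these weights 19.8% of all transcripts were higher and 2.21% lower at an unadjusted p under 0.05, and 4.93% but 0 of the 9 genes passed an adjusted p of 0.05.

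**Figure D1:**
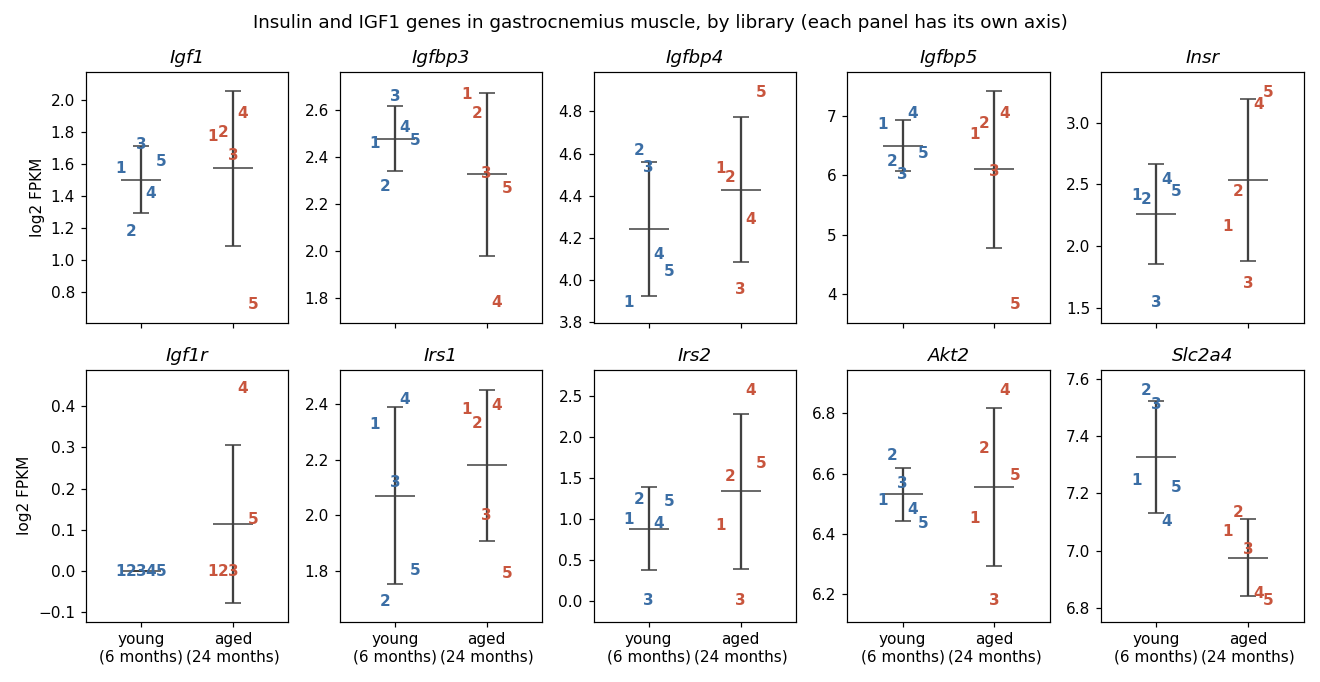
Level of each gene in each library (log2 FPKM, vertical axis, with its own scale in each panel) in young (blue) and aged (red) muscle. Each digit is the library of that number, and the bar and whiskers are the mean and SD of 5 libraries. In the Slc2a4 panel the groups overlap only through young 4 (7.10) and aged 2 (7.13).

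FPKM is per length, so levels of different genes can be set side by side. Over all 10 libraries the mean log2 FPKM was 7.15 for Slc2a4, 6.54 for Akt2, 6.30 for Igfbp5, 4.33 for Igfbp4, 2.40 for Igfbp3, 2.40 for Insr, 2.12 for Irs1, 1.54 for Igf1, 1.11 for Irs2 and 0.06 for Igf1r. Slc2a4 ranked 423 and Akt2 ranked 596 among the 12533 genes above 0, while Irs2 ranked 8280 and Igf1r ranked 11658. The transporter and the kinase at the end of the pathway were thus far above the receptors and adaptors in transcript level. Several neighbors in this order could not be separated. Akt2 was above Igfbp5 in 5 of 10 libraries and Igfbp3 was above Insr in 6 of 10, whereas Slc2a4 was above Akt2 in 9, and Igfbp4 was above Igfbp3 and Irs1 above Igf1 in all 10.

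Igf1, the growth factor itself, had a lower value in 1 aged library and no difference past the test. The gene lies at chr10:87858265-87937047 (GRCm38). Its log2 FPKM was 1.57, 1.18, 1.72, 1.42 and 1.61 in young 1 to 5, and 1.77, 1.79, 1.65, 1.91 and 0.72 in aged 1 to 5. The values of aged 1, 2 and 4 were above all young values, and aged 5 was below them all. The mean was 1.50 ± 0.21 in young and 1.57 ± 0.48 in aged muscle (SD, n = 5), a difference of 0.07 (95% interval -0.45 to 0.60, limma adjusted p = 1.00; exact permutation p = 0.786, two-sided). Single libraries moved this value. Aged 5 held the lowest value, so leaving it out could only raise the difference. Without it the difference was 0.28 (exact permutation p = 0.0397, limma unadjusted p = 0.0989), with an aged mean of 1.78 ± 0.11 (SD, n = 4). In that fit 4.07% of all transcripts were higher at an unadjusted limma p under 0.05. Without young 2 or without aged 4 the difference was -0.01. The transcript used is short, at 510 bases, and rested on only 17 to 58 reads per library. It stops 21693 bases before the most 3′ annotated end of the gene. The full-length transcript of 7052 bases, the longest listed, had its highest value in aged 3 (1.51, from 638 reads), while no other library was above 0.62. In bulk muscle, fewer cells of a type and less RNA per cell cannot be told apart, which applies to Igf1 and to every gene that follows.

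The 3 binding proteins were Igfbp5, the most abundant, then Igfbp4 and Igfbp3. The promoters of Igfbp4 and Igfbp5 are shown, from 250 bases before to 50 bases after the annotated start, because these are the 2 binding protein genes with the highest levels and their upstream sequences are unlike. Capitals mark a TATA box (TATAAA, either strand) or a GC box (GGGCGG, either strand); TATAAA is in 13.6% and GGGCGG in 35.7% of the 32851 promoters of RefSeq (GRCm38.p6). Only Igfbp4 had a TATAAA match, which starts 28 bases before the start site, and neither promoter had a GGGCGG match.
Igfbp4, chr11:99040994-99041293, plus strand: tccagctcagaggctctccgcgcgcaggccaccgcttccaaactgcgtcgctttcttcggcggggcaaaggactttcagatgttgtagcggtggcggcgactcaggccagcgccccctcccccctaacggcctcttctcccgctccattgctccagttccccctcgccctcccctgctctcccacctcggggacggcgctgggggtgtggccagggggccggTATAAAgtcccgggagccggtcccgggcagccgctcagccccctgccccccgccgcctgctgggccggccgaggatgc
Igfbp5, chr1:72874816-72875115, minus strand: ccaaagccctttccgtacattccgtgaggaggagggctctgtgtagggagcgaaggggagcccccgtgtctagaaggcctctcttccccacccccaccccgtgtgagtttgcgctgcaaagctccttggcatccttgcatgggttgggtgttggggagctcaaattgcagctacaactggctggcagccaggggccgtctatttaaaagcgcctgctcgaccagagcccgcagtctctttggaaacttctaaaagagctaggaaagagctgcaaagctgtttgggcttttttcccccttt
The Igfbp4 window was 71.3% G or C with 27 CG pairs, and the Igfbp5 window was 56.3% G or C with 10 CG pairs, where the median of all promoters was 52.7%. These matches describe the letters only.

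Igfbp5, which binds IGF1 in the matrix around muscle fibers, had 1 aged library far below the rest. The gene lies at chr1:72858065-72874865. Its log2 FPKM was 6.86, 6.23, 6.01, 7.04 and 6.37 in young 1 to 5, and 6.69, 6.88, 6.06, 7.04 and 3.83 in aged 1 to 5. Aged 1 to 4 lay within the young range and aged 5 was far below it, with 1229 reads against 7033 to 14965 in the other 9 libraries. The mean was 6.50 ± 0.43 in young and 6.10 ± 1.32 in aged muscle (SD, n = 5), a difference of -0.40 (95% interval -1.64 to 0.84, limma adjusted p = 1.00; exact permutation p = 0.714). Without aged 5 the sign turned, to 0.16, and the aged SD was 0.43 as in young muscle. By its length alone, the transcript used is one annotated as processed, without a coding sequence. The second transcript, the coding one by the same match, gave nearly the same difference, -0.46.

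Aged 5 was the lowest of all 10 libraries in both Igf1 and Igfbp5, and it stood apart in other genes of the pathway too. A list of 10 FoxO factors and fasting response genes summed to 2851 FPKM in aged 5 and to 282 to 899 FPKM in the other 9 libraries. Such a sum is led by the most abundant genes, and Foxo1, Foxo4, Ddit4 and Angptl4 were not highest in aged 5. Foxo1 was at 2.28 log2 FPKM in aged 5 and 3.17 in young 5, and Ddit4 at 6.01 and 7.04. Trim63 and Fbxo32, the muscle ubiquitin ligases of that list, stood at 10.44 and 8.46 log2 FPKM in aged 5, and no other library was above 8.47 and 6.50. Whether this has a part in the low Igf1 and Igfbp5 of aged 5 was not tested.

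Igfbp4, a secreted inhibitor of IGF1, was at log2 FPKM 3.89, 4.62, 4.53, 4.12 and 4.04 in young 1 to 5, and at 4.53, 4.49, 3.95, 4.28 and 4.89 in aged 1 to 5. The gene lies at chr11:99040005-99052655. The groups overlapped over most of their range, although aged 5 was the highest of all and young 1 the lowest. The mean was 4.24 ± 0.32 in young and 4.43 ± 0.34 in aged muscle (SD, n = 5), a difference of 0.19 (95% interval -0.29 to 0.67, limma adjusted p = 1.00; exact permutation p = 0.381). With both libraries 3 left out it was 0.38 (exact permutation p = 0.114). By its length, which is all that ties it to GENCODE M21, the transcript used is one annotated as processed, without a coding sequence, and it shares its reads with the coding transcripts of the gene. The full-length coding transcript of 3831 bases differed by 0.43 with all libraries (limma unadjusted p = 0.131) and by 0.44 without libraries 3.

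Igfbp3, the main carrier of IGF1 in blood, was at log2 FPKM 2.46, 2.28, 2.66, 2.53 and 2.47 in young 1 to 5, and at 2.67, 2.59, 2.33, 1.78 and 2.27 in aged 1 to 5. The gene lies at chr11:7206086-7215498. Aged 4 was the lowest and aged 1 was just above the highest young library. The mean was 2.48 ± 0.14 in young and 2.33 ± 0.35 in aged muscle (SD, n = 5), and the difference was -0.15 (95% interval -0.57 to 0.26, limma adjusted p = 1.00; exact permutation p = 0.429). Without aged 4 it was -0.02.

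Of the receptors, Insr was detected in every library and Igf1r in 2. Insr, at chr8:3150922-3279649, had log2 FPKM 2.41, 2.38, 1.54, 2.54 and 2.44 in young 1 to 5, and 2.16, 2.44, 1.69, 3.15 and 3.24 in aged 1 to 5. Aged 4 and aged 5 were above all young libraries, and the lowest library of each age was its number 3. The mean was 2.26 ± 0.41 in young and 2.54 ± 0.66 in aged muscle (SD, n = 5), a difference of 0.27 (95% interval -0.45 to 0.99, limma adjusted p = 1.00; exact permutation p = 0.50). It was 0.09 without young 3, 0.12 without aged 4, 0.10 without aged 5, 0.48 without aged 3 and 0.04 with array weights. Igf1r, at chr7:67952257-68233668, was listed at 0 in all 5 young libraries and in aged 1, 2 and 3, and at 0.44 in aged 4 and 0.13 in aged 5. Its mean FPKM was at least 0.245, with every listed 0 counted as 0, and it was not fitted. A value of 0 stands for an FPKM under 1 and not for absence. Aged 4 and aged 5, the 2 libraries with Igf1r above 0, were also the 2 with the highest Insr.

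The adaptors Irs1 and Irs2 share a role at the receptor. The transcript listed for Irs1 was above that for Irs2 in 9 of 10 libraries. Both promoters are shown because these listed levels differ while both windows are rich in G and C, with capitals for GGGCGG.
Irs1, chr1:82291390-82291689, minus strand: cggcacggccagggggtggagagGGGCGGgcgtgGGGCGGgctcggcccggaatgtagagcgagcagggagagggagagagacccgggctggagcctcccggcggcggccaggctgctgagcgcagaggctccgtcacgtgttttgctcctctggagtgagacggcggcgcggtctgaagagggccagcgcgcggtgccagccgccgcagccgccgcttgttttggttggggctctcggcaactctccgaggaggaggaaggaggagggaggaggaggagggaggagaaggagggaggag
Irs2, chr8:11008880-11009179, minus strand: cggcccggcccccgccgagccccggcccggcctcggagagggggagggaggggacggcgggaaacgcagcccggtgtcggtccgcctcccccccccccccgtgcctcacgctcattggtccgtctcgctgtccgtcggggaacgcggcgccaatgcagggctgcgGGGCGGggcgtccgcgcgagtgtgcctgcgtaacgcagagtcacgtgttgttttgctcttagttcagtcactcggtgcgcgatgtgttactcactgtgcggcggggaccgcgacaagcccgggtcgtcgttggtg
Irs1 had 2 and Irs2 had 1 GGGCGG match, no TATAAA, and 71.3% and 72.0% G or C. A FoxO site (GTAAACA, either strand), searched because FoxO factors are known to act on Irs2, was in neither window nor in any of the 11 promoter windows of 8 of the 10 genes (not Slc2a4 and Insr), and it is in 3.65% of all promoters. That result concerns these letters in these windows. An E-box (CANNTG), which is in 72.3% of all promoters, was found once in each of the Irs1 and Irs2 windows, 115 and 44 bases before the start.

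Irs1, at chr1:82233105-82291439, was at log2 FPKM 2.33, 1.69, 2.12, 2.42 and 1.80 in young 1 to 5, and at 2.38, 2.33, 2.00, 2.39 and 1.79 in aged 1 to 5. All aged values lay within the young range. The mean was 2.07 ± 0.32 in young and 2.18 ± 0.27 in aged muscle (SD, n = 5), a difference of 0.11 (95% interval -0.34 to 0.55, limma adjusted p = 1.00; exact permutation p = 0.603).

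Irs2, at chr8:10984681-11008929, was at log2 FPKM 1.00, 1.24, 0, 0.94 and 1.22 in young 1 to 5, and at 0.92, 1.52, 0, 2.56 and 1.68 in aged 1 to 5. It was listed at 0 in both libraries numbered 3, the deepest of each age, and aged 2, 4 and 5 were above all young libraries. The mean was 0.88 ± 0.51 in young and 1.34 ± 0.95 in aged muscle (SD, n = 5), a difference of 0.46 (95% interval -0.52 to 1.43, limma adjusted p = 1.00; exact permutation p = 0.357). Without libraries 3 it was 0.57 (exact permutation p = 0.171, where 4 libraries against 4 cannot give less than 0.0286). Single libraries moved it further, to 0.15 without aged 4, 0.24 without young 3 and 0.79 without aged 3 (limma unadjusted p = 0.0463 for the last, where 10.7% of all transcripts were higher at an unadjusted p under 0.05). Aged 4 rested on 631 reads and the other 7 libraries above 0 on 162 to 261, where the transcript length behind these read numbers came from the steps between values and matched no annotated length. Irs1 was above Irs2 in 9 of 10 libraries. Irs1 minus Irs2 was -0.17 in aged 4 and was largest in young 3 (2.12) and aged 3 (2.00). The transcript listed for Irs1 reaches the 3′ end of its gene, whereas the 3′ end of that for Irs2 is not known. The 2 may therefore cover different parts of their genes.

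Akt2, the Akt isoform needed for the response of muscle and fat to insulin, was nearly level between the ages. The gene lies at chr7:27591552-27640826. Its log2 FPKM was 6.51, 6.66, 6.57, 6.48 and 6.44 in young 1 to 5, and 6.45, 6.68, 6.18, 6.87 and 6.59 in aged 1 to 5. Aged 4 and aged 2 were above all young libraries and aged 3 was below them all. The mean was 6.53 ± 0.09 in young and 6.56 ± 0.26 in aged muscle (SD, n = 5), a difference of 0.03 (95% interval -0.33 to 0.38, limma adjusted p = 1.00; exact permutation p = 0.849). With median-of-ratios scaling the difference was -0.01 and the median of all transcripts moved from 0.03 to -0.02; with quantile normalization it was -0.04 and that median was -5.83e-05.

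Slc2a4 was lower in aged muscle by 1.28-fold. The gene, at chr11:69942286-69948216, encodes GLUT4, through which insulin and contraction raise glucose uptake in muscle. Its log2 FPKM was 7.25, 7.56, 7.51, 7.10 and 7.22 in young 1 to 5, and 7.07, 7.13, 7.00, 6.85 and 6.83 in aged 1 to 5. Aged 1, 3, 4 and 5 were below all young libraries, and only young 4 and aged 2 overlapped. The mean was 7.33 ± 0.20 in young and 6.98 ± 0.13 in aged muscle (SD, n = 5), a difference of -0.35 ± 0.15 (SE, 95% interval -0.68 to -0.02). The exact permutation p was 0.0159 (two-sided, smallest possible 0.00794), the limma unadjusted p was 0.0387 and the limma adjusted p over all transcripts was 1.00. Each value rested on 5786 to 15888 reads, so counting error was small beside the spread between mice.

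The lower Slc2a4 kept its direction without any single library, with differences of -0.41 to -0.29, but not its unadjusted p. The limma unadjusted p was 0.0552, 0.10 and 0.0797 without young 1, 2 and 3, and 0.0524, 0.0784 and 0.0692 without aged 1, 4 and 5. Without both libraries numbered 3 the difference was -0.31, with an exact permutation p of 0.0571 and a limma unadjusted p of 0.0474. Relative to Akt2 in the same library, which needs no scaling between libraries, Slc2a4 was higher by 0.73, 0.90, 0.94, 0.62 and 0.79 in young 1 to 5 on the log2 scale. In aged 1 to 5 it was higher by 0.62, 0.45, 0.83, -0.03 and 0.23, so 4 of 5 aged values were below the lowest young value. That difference was not tested.

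Markers of muscle fibers and of other cells were read beside Slc2a4. Of the 6 muscle fiber markers 1 was higher and 5 lower in aged muscle, with a median difference of -0.13 and 0 at an unadjusted limma p under 0.05, and their summed level was 76980 to 92657 FPKM in young and 69494 to 78943 FPKM in aged libraries. Among the 6 fiber markers, Myh4 differed by -0.27 (limma unadjusted p = 0.078, exact permutation p = 0.0238), and it was named after its value was seen. The 5 adipocyte markers summed to 173 to 369 FPKM in young and 240 to 364 FPKM in aged libraries. The 5 slow fiber markers, all with higher aged means, ranged from 21.1 to 261 FPKM in young and from 48.3 to 769 FPKM in aged libraries, with Myl3 at an unadjusted limma p of 0.0482. The 6 macrophage markers summed to 13.0 to 30.6 FPKM in young and 23.0 to 96.7 FPKM in aged libraries, and Lyz2 was higher by 1.22 (limma unadjusted p = 0.00963). Cd68 was listed at 0 in 4 young libraries, at 0.29 in young 2 and at 0.19 to 2.38 in aged libraries, and since it was fitted only through the aged ones no test is given. The part of these cells in the values above was not tested.

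**Figure D2:**
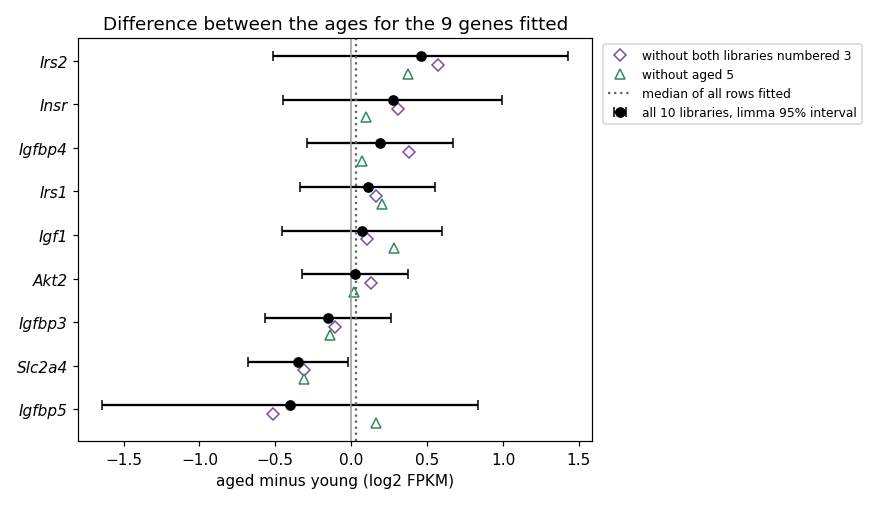
Difference between the ages, aged minus young (log2 FPKM, horizontal axis), for the 9 genes fitted. Black points and bars are the estimate and its 95% interval from limma, and open symbols leave out both libraries numbered 3 or aged 5. The interval of Slc2a4 (-0.68 to -0.02) is the only one that does not hold 0, and Igfbp5 changes sign without aged 5.

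The transcripts of 1 gene share reads and are not independent, but they show which part of a gene the libraries covered. In Slc2a4, all 8 transcripts were lower in aged muscle, by 0.34 to 1.08 on the log2 scale. Of these, 2 had an unadjusted limma p under 0.05, beside 0.738% of all transcripts in that direction. Without both libraries numbered 3 the 8 differences ran from -0.40 to -0.31. In Akt2, 4 of 14 transcripts were higher and 10 lower in aged muscle, from -0.77 to 0.03, whereas without libraries 3 all 14 were higher, by 0.07 to 0.15. In Igfbp4, 4 of 6 were higher, and without libraries 3 all 6 were, by 0.38 to 0.44. Leaving out 2 libraries therefore turned the direction of most Akt2 transcripts and brought the transcripts of each of these 3 genes closer together. In Igf1 it did not, as its 6 fitted transcripts ran from 0.07 to 0.22, and from -0.03 to 0.22 without libraries 3. The 2 of Insr ran from 0.08 to 0.27, and from 0.10 to 0.30 without them.

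**Figure D3:**
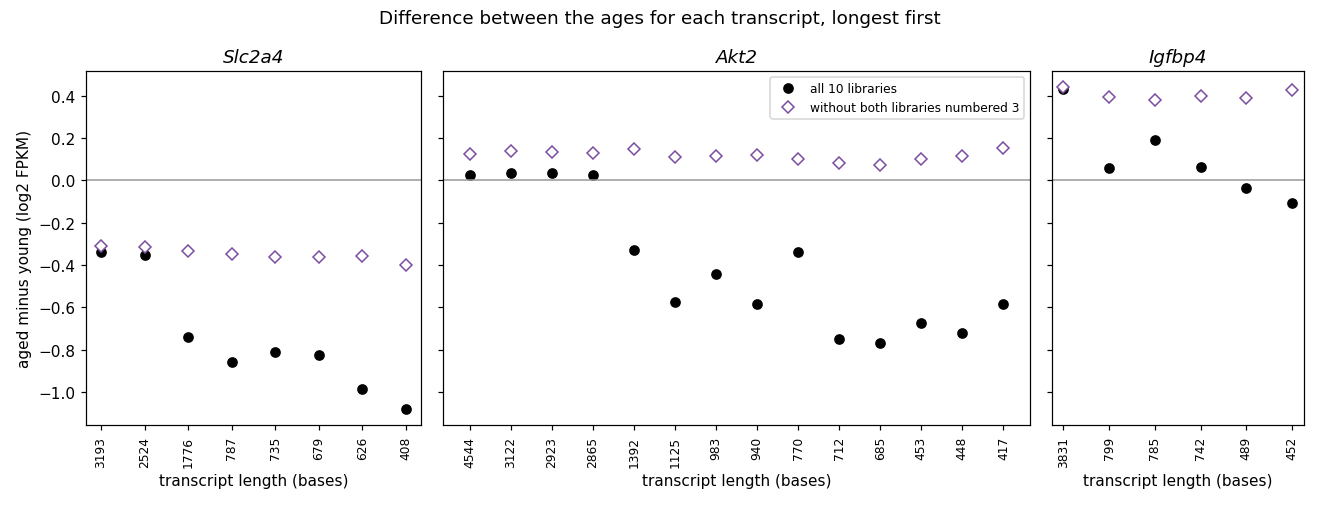
Difference between the ages, aged minus young (log2 FPKM, vertical axis), for every transcript fitted of Slc2a4, Akt2 and Igfbp4, with transcript length in bases along the horizontal axis. Black points use all 10 libraries and open diamonds leave out both libraries numbered 3. The diamonds lie within -0.40 to -0.31 for Slc2a4, 0.07 to 0.15 for Akt2 and 0.38 to 0.44 for Igfbp4.

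In Slc2a4, Akt2 and Igfbp4, the genes with the most transcripts fitted apart from Igf1, the libraries numbered 3 differed from the others of their age by position in the gene, aged 3 by more. In Slc2a4, the 2 transcripts that reach within 4 bases of the gene's 3′ end were 0.05 and 0.11 above the median of the other aged libraries in aged 3, and the 6 that stop 1253 to 3530 bases earlier were 2.36 to 4.26 below it. In Akt2, the 4 transcripts that end within 1378 bases were 0.43 to 0.46 below, and the 10 that stop 2656 to 24480 bases earlier were 2.31 to 5.11 below. In Igfbp4, the transcript at the 3′ end was 0.68 above and the 5 others were 0.56 to 2.49 below. In young 3, the same 2 groups of transcripts were 0.28 to 0.29 above and 0.23 to 0.77 below the other young libraries in Slc2a4, and 0.07 to 0.08 above and 0.06 to 0.98 below them in Akt2. In Igfbp4 all were above in young 3, by 0.89 at the 3′ end and by 0.40 to 0.50 elsewhere. Igf1 was different, as its 5 fitted transcripts that stop 5241 to 21693 bases early were between -0.13 and 0.01 in aged 3 while the full-length one was 1.34 above. In Igfbp5, both transcripts end within 133 bases of the 3′ end and were 0.72 and 0.96 below. The 3 genes were chosen and grouped after the values were seen, with no test. Over all 42 transcripts fitted of the 10 genes, 24 were more than 1 below the other aged libraries in aged 3.

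**Figure D4:**
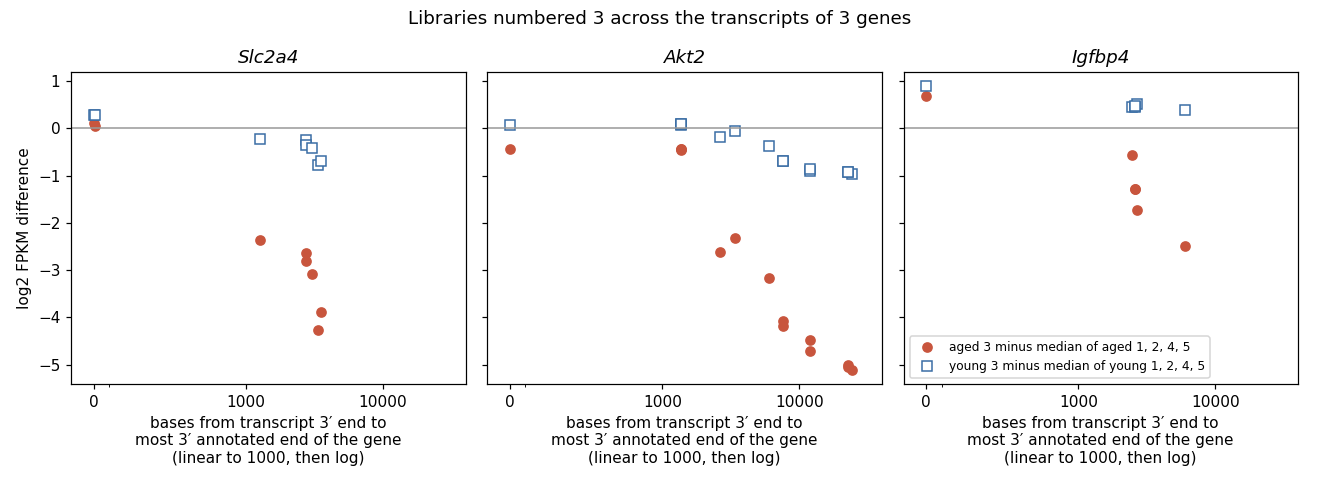
Level in each library numbered 3 minus the median of the other 4 libraries of its age (log2 FPKM, vertical axis), against the distance from the transcript's 3′ end to the most 3′ annotated end of the gene (bases, linear near 0 and logarithmic further out). Filled circles are aged 3 and open squares young 3. Aged 3 falls from 0.11 to -4.26 in Slc2a4 and from -0.43 to -5.11 in Akt2.

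The wider pathway was read from 6 lists of 87 genes that hold none of the 10, of which 86 were in the data and 67 were fitted. Of these, 3 (Igfals, Socs1 and Socs3) averaged an FPKM of 1 or more in only 1 age and are left out of the counts that follow, a choice made after their values were seen. At an unadjusted limma p under 0.05, 3 of the other 64 (4.69%) were higher in aged muscle, beside 3.41% of the transcripts that averaged 1 or more in each age, and 0 were lower, beside 0.709%. The 3 were Tbc1d4, Rab13 and Cdkn1a. None of the 64 passed an adjusted p of 0.05, and the median difference was 0.06, with 36 of 64 higher. Without both libraries numbered 3, 12 of 64 (18.8%) were higher, beside 11% of the same transcripts. With the array weights, 3 of 64 (4.69%), Htra1, Vamp2 and Cdkn1a, passed an adjusted p of 0.05, beside 4.64%.

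Of the ligands, receptors and substrates (6 fitted of 12) and the other binding proteins and proteases (4 of 10), 0 were past the unadjusted threshold. The genes with the highest mean were Grb2, an adaptor to the Ras pathway, at 5.18 ± 0.40 in young and 4.74 ± 1.24 in aged muscle (SD, n = 5), and Igfbp7 at 5.21 ± 0.26 and 4.93 ± 0.38. Of the PI3 kinase, Akt and mTOR arm, 19 of 21 were fitted and 0 passed, with a median difference of -0.03. Akt1s1, an inhibitor of mTOR complex 1, was its most abundant gene at 6.73 ± 0.30 in young and 6.34 ± 0.40 in aged muscle. In this arm Pik3ca, a catalytic subunit of PI3 kinase, had an exact permutation p of 0.0397 at a limma unadjusted p of 0.0705, with 2.31 ± 0.18 in young and 2.61 ± 0.16 in aged muscle (SD, n = 5), and was named after its value was seen. Other settings put some genes of these 3 lists at an unadjusted p under 0.05, of which examples follow. Without both libraries numbered 3, Shc1, Htra1, Akt1 and Rictor were higher. Shc1 and Rictor were higher with quantile normalization, Akt1s1 was lower with that and with median-of-ratios scaling, and Pik3ca was higher with no filter on low values or with the equal-variance 2-sample test. Both insulin genes, Ins1 and Ins2, were listed at 0 in every library.

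Of the inhibitors of insulin signaling, 7 were fitted apart from Socs1 and Socs3, and 0 of the 7 were past the unadjusted limma threshold. Among them Inpp5k, a lipid phosphatase gene, was at 3.28 ± 0.10 in young and 3.50 ± 0.12 in aged muscle (SD, n = 5), with an exact permutation p of 0.0238 at a limma unadjusted p of 0.122. It was higher at an unadjusted p under 0.05 with no filter on low values and with the equal-variance 2-sample test, and was named after its value was seen. Socs1 and Socs3 bind the receptor complex and its adaptors. Both passed the filter on low values through the aged libraries alone, so they could only come out higher, and their values are given with no test. Socs3 was listed at 0 in all young libraries and at 1.19, 1.03, 1.40, 2.91 and 0.33 log2 FPKM in aged 1 to 5. Socs1 was listed at 0 in all young libraries and in aged 5, and at 0.66, 2.06, 4.09 and 2.03 in aged 1 to 4. No fold is given against a group at 0. The most abundant of the list, the lipid phosphatase gene Inppl1, was at 4.31 ± 0.17 in young and 4.02 ± 0.38 in aged muscle.

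Of the genes of glucose transport and use, 2 of 19 were higher in aged muscle at an unadjusted limma p under 0.05. The share was 3.41% over the transcripts that averaged an FPKM of 1 or more in each age. The 2 genes act on GLUT4 vesicles: Tbc1d4, the Akt substrate that holds them inside the cell, and Rab13, a small GTPase of their traffic in muscle cells. Tbc1d4 was at log2 FPKM 2.65, 2.46, 2.56, 3.10 and 2.75 in young 1 to 5, and at 3.10, 3.25, 3.05, 3.21 and 4.04 in aged 1 to 5. Only aged 3 fell below the highest young library, young 4, and the difference was 0.63 (limma unadjusted p = 0.0161; exact permutation p = 0.0159). Rab13 was at 2.56 to 3.04 in young and 3.06 to 4.08 in aged libraries, with no overlap and a difference of 0.55 (limma unadjusted p = 0.0285; exact permutation p = 0.00794). The limma unadjusted p was 0.0774 with median-of-ratios scaling, 0.117 with quantile normalization, 0.0684 without young 2 and 0.0585 without young 5, so the call was lost in each. The difference was 0.36 without aged 3 and 0.34 with array weights. Vamp2 of this list was at 3.86 ± 0.19 in young and 4.24 ± 0.28 in aged muscle (SD, n = 5). Its exact permutation p was 0.0238 at a limma unadjusted p of 0.0533, and it was named after its value was seen. With the library number fitted as a block, among other settings, Vamp2 was higher at an unadjusted limma p under 0.05. Txnip, an inhibitor of glucose uptake, had the highest mean of the list, 7.34 ± 0.28 in young and 7.77 ± 0.78 in aged muscle.

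Of the FoxO and fasting list, 1 of 10 was higher at an unadjusted limma p under 0.05, beside the same 3.41% of transcripts. This was Cdkn1a, which encodes the cell cycle inhibitor p21. It was at log2 FPKM 1.57, 2.56, 2.98, 1.53 and 2.71 in young 1 to 5, and at 3.56, 3.44, 4.24, 3.99 and 5.53 in aged 1 to 5. All aged libraries were above all young libraries, by a mean of 1.88 (3.68-fold, limma unadjusted p = 0.00144, adjusted p = 0.599; exact permutation p = 0.00794). Trim63, the most abundant, was at 7.89 ± 0.65 in young and 7.78 ± 1.59 in aged muscle.

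**Figure D5:**
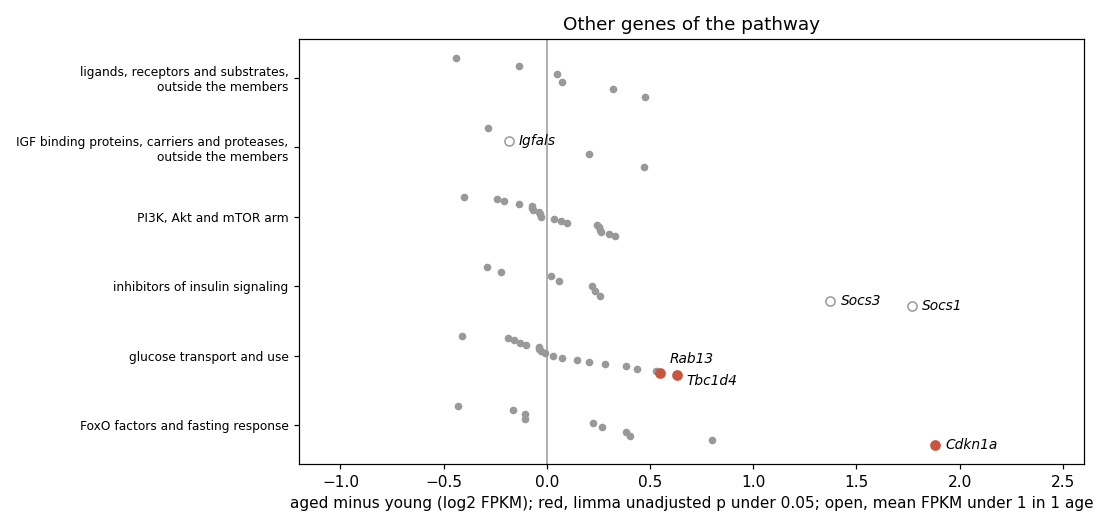
Difference between the ages, aged minus young (log2 FPKM, horizontal axis), for the 67 other pathway genes fitted, by list. Red points have a limma unadjusted p under 0.05, and the 3 lie at 0.55 (Rab13) to 1.88 (Cdkn1a). Open points averaged an FPKM of 1 or more in only 1 age; Socs1 and Socs3, at 0 in all young libraries, could only lie to the right of 0.

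The genes whose levels ran most alike with each of the 8 genes above 0 in all libraries were found among 8215 genes, by Pearson's r over the 10 libraries after the mean of each age was taken off. The points share their libraries, so r describes these 10 libraries only. Slc2a4 ran closest with Slc16a3 (r = 0.979), the lactate exporter of glycolytic fibers, then Rsph3a (0.938) and Mpst (0.923). Akt2 ran closest with Nomo1 (0.978), Ints3 (0.974) and Stk40 (0.957), and Insr with Tgfbrap1 (0.996), 4931406P16Rik (0.992) and Setd5 (0.989). Igf1 ran closest with Kcng4 (0.957), Sobp (0.945) and Mettl21c (0.943), and Igfbp5 with Tmem233 (0.975), Aurka (0.966) and Cntnap2 (0.960). For Irs1 they were Klhl8 (0.917), Itga6 (0.914) and Tm4sf1 (0.893), for Igfbp3 Pbdc1 (0.921), Acot13 (0.914) and Dnajc9 (0.875), and for Igfbp4 Rrp1 (0.965), Exosc4 (0.958) and Xrn2 (0.944). Without both libraries numbered 3, r was 0.976 for Slc2a4 with Slc16a3 and 0.996 for Akt2 with Nomo1. Slc16a3 itself was at a mean of 7.20 in young and 6.61 in aged muscle, a difference of -0.59.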

How the data were processed

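Total RNA of gastrocnemius from 5 young and 5 aged mice was poly-A selected and sequenced in paired-end reads. The authors mapped the reads to mm10 with TopHat2, computed FPKM, and deposited its log2 value for each library and each Ensembl or Vega transcript, with replicates not pooled; the counting program was not given in the sources used here. The submitters' processing notes also name TopHat2 and mm10. All 10 columns matched their labels by age and number, and 0 columns of per-sample values were left out.

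The log2 values were used as deposited. limma 3.58.1 (lmFit, eBayes, default settings, R 4.3.3) took in the 38059 transcripts that averaged FPKM 1 or more, p-values were adjusted by Benjamini-Hochberg over these, and each named gene was also compared by a two-sided exact permutation test. The fit was tested on simulated data. The genes, gene lists and tests were chosen with earlier results of these data known. All 10 genes were described, and for each of them above 0 in all libraries the 3 genes most alike. Of each pathway list, those with an unadjusted limma p under 0.05 and the one with the highest mean were named by rule. The other genes named from these lists were added after their values were seen. Depths and read numbers were recovered from the steps between values, which gave whole reads (within 0.05) at an annotated GENCODE M21 length for 80.8% of 40794 transcripts (those above 0 in 4 or more libraries); intervals from them would cover counting error only, and no test was made on them. Deposited transcript names differ from those of GENCODE M21, so transcript types, lengths and 3′ ends rest on a match by length, and Irs2 and Igf1r matched none (for Irs2, 4024 bases came from the steps). The study's methods describe FPKM per RefSeq gene, whereas the values are per transcript. Gene positions (GRCm38) and promoters (GRCm38.p6) are those of RefSeq. Young and aged libraries of the same number come from different mice, yet deviated together (correlations 0.131, 0.332, 0.695, 0.390 and 0.208, mean 0.351, against a mean of -0.0376 for other combinations), so the number was also fitted as a block. Alternatives were other pseudocounts, filters, scalings, weights, tests, transcripts and left-out libraries. Tables and figures were made with matplotlib 3.10.9, scipy 1.17.1, pandas 2.3.3 and numpy 2.4.6 under Python 3.11.15. No protein sequences were used here.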

Additional observations from a re-analysis of the deposited data

Results flagged for a closer look

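The values of 4 genes stood apart from the rest of their group of 5 libraries, by the gap to the nearest library divided by the whole range (Dixon's criterion). Chance flags about 1 in 20 groups, and 19 groups were examined, since Igf1r was at 0 in all young libraries. Igf1 was 0.72 log2 FPKM in aged 5, with a gap of 0.782 of the range, and the next aged library was at 1.65. Igf1r was 0.44 in aged 4 (gap 0.717), where 3 of the aged libraries were listed at 0. Insr was 1.54 in young 3 (gap 0.843), the library in which Irs2 was listed at 0 (gap 0.758) while the other 4 young libraries were at 0.94 to 1.24. Aged 3 was also the lowest aged library in both genes, at 1.69 for Insr and 0 for Irs2.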

How the results depend on the processing

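Of the 9 genes fitted, 0 passed an adjusted p of 0.05 under any of the 22 alternatives refitted over all transcripts, although Irs2 had no value where every library had to be above 0; Igf1r was fitted under none. Slc2a4 stayed lower in aged muscle under all 24 of its alternatives, with differences of -0.75 (mean over its transcripts) to -0.19 (limma array weights) and a lowest adjusted p of 0.311. With array weights it was no longer under an unadjusted p of 0.05, and Igfbp4 was instead, at 0.371, where 19.8% of all transcripts were higher. Insr, Irs1, Irs2 and Igfbp4 kept their direction under all 24, 22, 21 and 24, but not their size. When 1 library was left out, Insr ran from 0.0941 (without young 3) to 0.485 (without aged 3), Irs1 from 0.0135 (young 2) to 0.205 (aged 5), Irs2 from 0.150 (aged 4) to 0.791 (aged 3), Igfbp4 from 0.0726 (aged 5) to 0.307 (aged 3) and Igfbp3 from -0.237 (aged 1) to -0.0155 (aged 4). Akt2 turned to -0.0147 with median-of-ratios scaling, -0.0374 with quantile normalization and -0.404 as the mean over its transcripts, and ran from -0.0541 to 0.120 when 1 library was left out, without aged 2 and aged 4 on the negative side. With array weights Igfbp3 turned to 0.0844 and Igfbp5 to 0.0479, Insr was 0.0401 and Igf1 0.274. When 1 library was left out, Igf1 ran from -0.0141 to 0.284 and Igfbp5 from -0.639 to 0.165. The number of genes at an unadjusted p under 0.05 was 0 to 2 when 1 library was left out. It was 0 without young 1, young 2, young 3, aged 1, aged 4 or aged 5, and 2 without aged 3 (Slc2a4 lower, beside 0.998% of all transcripts, and Irs2 higher, beside 10.7%). The cause was not tested.

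In the comparison paired by replicate number (the replicate block), Slc2a4 differed by -0.352 with an unadjusted p of 0.0283, and the block changed no call among the 10 genes. Of the 64 other pathway genes that averaged an FPKM of 1 or more in each age, the number higher at an unadjusted p was 3, beside 3.41% of all such transcripts. With the replicate block on all 10 libraries it was 4 (6.15%), with Vamp2 added. It was 6 with no filter (4.65%), 15 with array weights (19.3%), 6 with the equal-variance 2-sample test (4.44%), 12 without both libraries numbered 3 (11%), 12 with the block as well (10.9%, chosen after seeing the data), and 2 to 11 when 1 library was left out, with 6 without young 3 (4.33%) and 11 without aged 3 (10.1%). Tbc1d4 and Cdkn1a were among the genes in all 22 alternatives. By the limma unadjusted p, Rab13 was not with median-of-ratios scaling, with quantile normalization, without young 2 and without young 5. Where every library had to be above 0, 4 of 57 were higher, beside 5.08%. The median of all transcripts rose from 0.03 to 0.107 with array weights, 0.175 without aged 3 and 0.129 without both libraries numbered 3. Irs1 and Irs2 have 1 transcript each. Values under an FPKM of 1 are listed as 0, so changes below it were not detectable, least of all in Igf1r and Irs2.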
